A study of Mus musculus with 15 samples.

Results

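Amino acid uptake, asparagine and serine synthesis and the mitochondrial folate cycle were followed through 10 genes in splenic B cells of the mouse: Slc7a5, Slc3a2, Slc1a5, Slc38a2, Asns, Psat1, Phgdh, Shmt2, Mthfd2 and Mthfd1l. They were chosen by name, from what their products are known to do, and with earlier results of these data known. They are 10 of the 54838 genes in the deposited table. All 10 passed the filter on low counts. Values are CPM, counts brought to a common library total after TMM normalisation (a trimmed mean of gene-wise ratios between libraries), and fold changes are log2.

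The 15 RNA sequencing libraries fall into 5 groups of 3, lettered A, B and C. The cells came from wild-type male mice, 3 months old, whose spleens were taken on day 9 after immunisation with sheep red blood cells. The CD40-activated, CpG-activated and LPS-activated groups are naive B cells kept for 5 days in an embryonic stem cell medium based on KO-DMEM, refreshed on day 3. They received anti-CD40 antibody (5 µg/ml) with IL-4 (80 ng/ml), or CpG (2 µM), or lipopolysaccharide (LPS, 25 µg/ml). Whether the CpG and LPS cultures had IL-4 as well cannot be read from the labels. The GC group is sorted germinal centre B cells and the naive group sorted naive B cells, both taken here as uncultured from their labels, though the series text can be read otherwise. What the letters stand for and whether animals were pooled are not given in the sources used here, so p-values reflect the spread between libraries only, which may be partly technical. The activated groups also differ from the GC and naive groups in having been cultured, and stimulus and culture cannot be told apart in those comparisons.

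As background, the Slc7a5 and Slc3a2 proteins pair at the cell surface and exchange large neutral amino acids such as leucine. Phgdh and Psat1 make serine from a glycolytic intermediate, Shmt2 splits serine into glycine and a folate-bound carbon in mitochondria, and Mthfd2 and Mthfd1l carry that carbon on to formate, which the cytosol uses for purines and thymidylate. Lymphocytes that start to grow and divide are known to raise both processes, and Asns, Psat1, Phgdh, Shmt2 and Mthfd2 are known targets of the transcription factor ATF4, which is translated when amino acids run short.

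RefSeq promoter windows on GRCm38.p6, from 250 bases before to 50 bases after the start, were at hand for 8 of the 10 genes. TGATGNAA, a form of the element through which ATF4 acts on amino acid response genes, was searched on both strands and occurs in 3.97% of the 32851 windows. Of the 8 genes, Asns alone holds it, and its match begins 23 bases before the start, in the direction of the gene. CACGTG, the E-box that MYC can bind, was searched in the same way; it occurs in 7.15% of all windows and in none of the 8 genes. A match is a description of the letters and not a measured site. The 150 bases before the start are shown for Asns, which has the largest difference between activated and naive cells, with the match in capitals, and beside it for Phgdh and Shmt2, the most abundant of the 10 genes per length in activated and in GC cells, which hold no match. The stretches are chr6:7693210-7693359, chr3:98339970-98340119 and chr10:127522445-127522594, all on the minus strand and written 5′ to 3′ along the gene.
Asns: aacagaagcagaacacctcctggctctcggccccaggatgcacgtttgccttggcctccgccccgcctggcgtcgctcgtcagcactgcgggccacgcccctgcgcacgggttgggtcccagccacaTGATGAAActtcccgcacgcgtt
Phgdh: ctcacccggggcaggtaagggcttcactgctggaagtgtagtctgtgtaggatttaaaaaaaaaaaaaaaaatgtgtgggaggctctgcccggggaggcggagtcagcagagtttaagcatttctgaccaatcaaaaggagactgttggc
Shmt2: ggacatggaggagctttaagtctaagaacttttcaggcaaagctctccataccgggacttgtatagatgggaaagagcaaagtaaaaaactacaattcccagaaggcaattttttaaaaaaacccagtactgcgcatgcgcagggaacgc

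Libraries held 25397624 to 36272197 counts. The naive libraries A and B stood apart from the other 13. They had 13920 and 11523 genes with a count, against 16314 to 19320 elsewhere, and 816 and 606 genes with 1 to 20 counts, against 3267 to 6253. In every library most counts from 1 to 20 were even (73.5% to 83.5%), and in naive B 82.8% of counts over 100 were even too. Activated libraries grouped by letter and not by titled stimulus: across genes, their deviations from group means correlated at 0.362 to 0.495 where the letter was shared and the stimulus differed, and at -0.284 to -0.125 where the letter differed. Whether stimulus and letter were exchanged in the titles cannot be told from the sources used here. The groups are named as titled, and every value given by stimulus or by letter holds only under those titles. The B cell markers Cd79a, Cd79b, Ms4a1, Cd22 and Pax5 were present in all groups. The B cell list of 6 markers, which includes these, summed to 4639 to 5980 CPM in activated, 7931 to 8862 CPM in GC and 10362 to 13214 CPM in naive libraries. The 6 follicular markers summed to 6888 to 8577 CPM in naive libraries, the highest of the groups. The T cell list summed to 160 to 174 CPM in GC libraries, the highest of the groups, 57.0 to 74.3 CPM in naive libraries and 30.4 to 43.5 CPM in activated libraries. Of its 6 markers, Cd3e and Cd8a were at 0 in the GC and naive libraries, and 4 had counts in each of these groups. The NK cell list summed to at most 2.20 CPM and the myeloid list to at most 30.9 CPM in any library. The erythroid list reached 293 CPM in naive B. The 7 proliferation genes summed to 1438 to 2152 CPM in activated libraries, 3564 to 3804 CPM in GC libraries and 91.6 to 111 CPM in naive libraries. Early response and heat shock genes, which handling can raise, summed to 339 to 579 CPM in activated libraries, 283 to 339 CPM in GC libraries and 2258 to 8849 CPM in naive libraries. The part of these differences in the results below was not tested.

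Against naive cells, activated cells of all 3 stimuli carried more mRNA of the asparagine, serine and folate enzymes and of Slc7a5, and less of Slc38a2. Slc3a2 and Slc1a5 did not pass the test. In each of the 3 comparisons 8 of the 10 genes were called by edgeR's quasi-likelihood test at an adjusted p under 0.05, 7 higher and 1 lower. Over all 17144 genes tested, 34.1% were called with CD40, 33.6% with CpG and 33.7% with LPS. Calls of higher expression covered 19.8%, 19.7% and 19.5% of all genes. The median log2 fold change of the 10 genes was 2.10, 1.86 and 1.85 for CD40, CpG and LPS, beside 0.17, 0.18 and 0.18 over all genes tested. The 3 comparisons share the naive libraries. In bulk RNA, more cells that express a gene and more mRNA per cell cannot be told apart.

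GC cells, compared with the same naive libraries, also carried more Asns, Psat1, Phgdh, Shmt2 and Mthfd2 mRNA, and less of the transporters Slc3a2 and Slc38a2. There 7 of the 10 were called, 5 higher and 2 lower, against 34.5% of all genes (17.9% higher and 16.5% lower), with a median of 1.14 beside 0.00 over all genes. The all-gene median is 0.12 when only the GC and naive libraries are fitted, and this shift bears on values as small as those of Slc38a2 and Mthfd1l. Against GC cells, activated cells were higher in Slc7a5 and Shmt2 with each stimulus and in Slc3a2 with CD40 and CpG, and none of the 10 was called lower. The counts were 3, 3 and 2 for CD40, CpG and LPS, beside 28.4%, 28.9% and 28.1% of all genes, and the medians 0.43, 0.31 and 0.23 beside 0.05, 0.05 and 0.06. The shares called, 3, 3 and 2 of 10, are near these backgrounds.

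**Figure D1:**
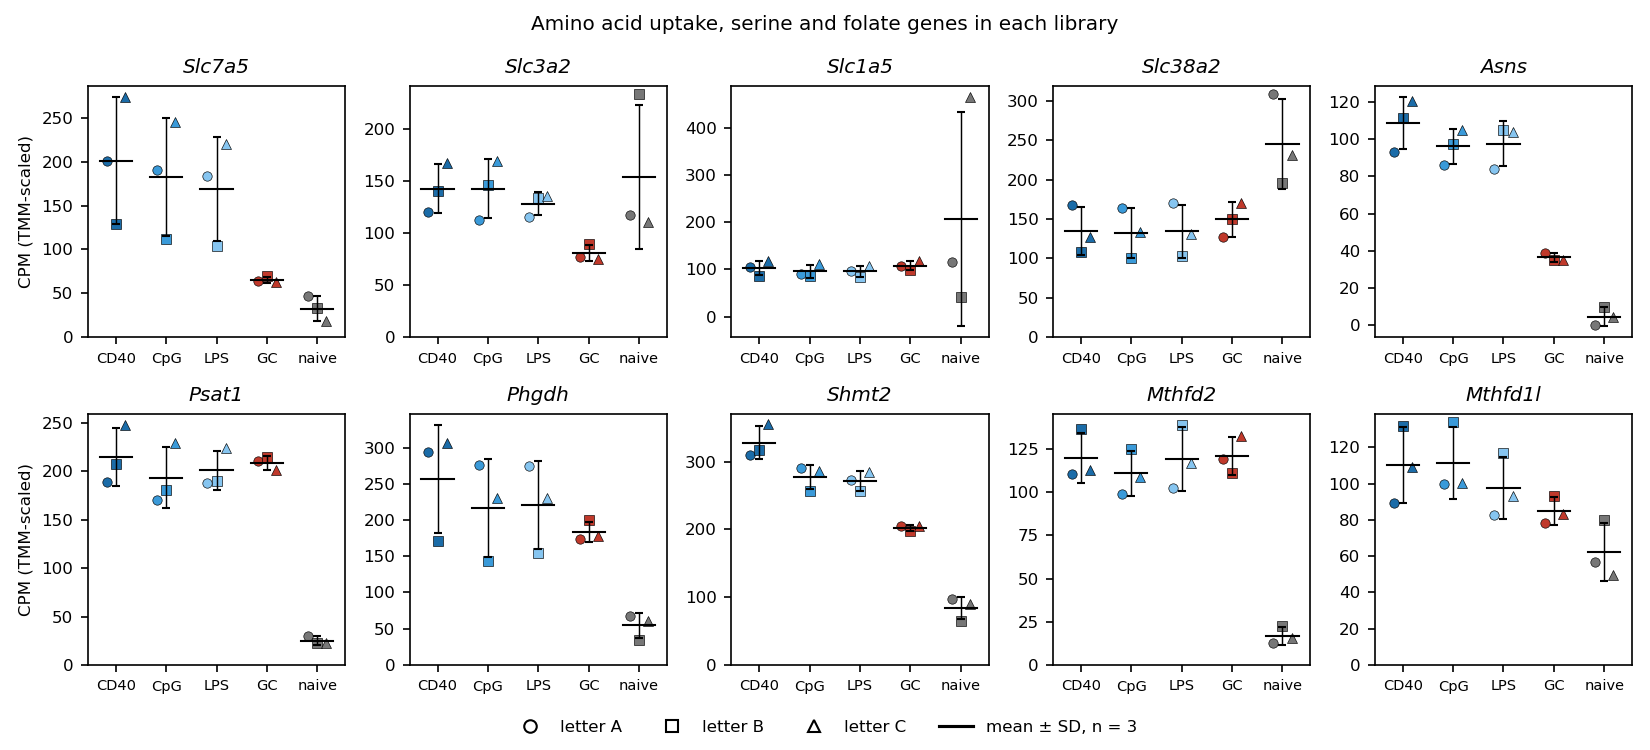
CPM of each gene (linear axis) in every library, by group, with the marker shape giving the letter and bars the mean ± SD of 3 libraries. Slc7a5, Asns, Psat1, Phgdh, Shmt2 and Mthfd2 are higher in all activated and GC libraries than in any naive library. Of all genes tested, 25.3%, 27.2%, 27.2% and 25.3% were higher than naive without overlap in CD40-, CpG- and LPS-activated and GC libraries. Slc1a5 spreads from 41.2 to 464 CPM among naive libraries.

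**Figure D2:**
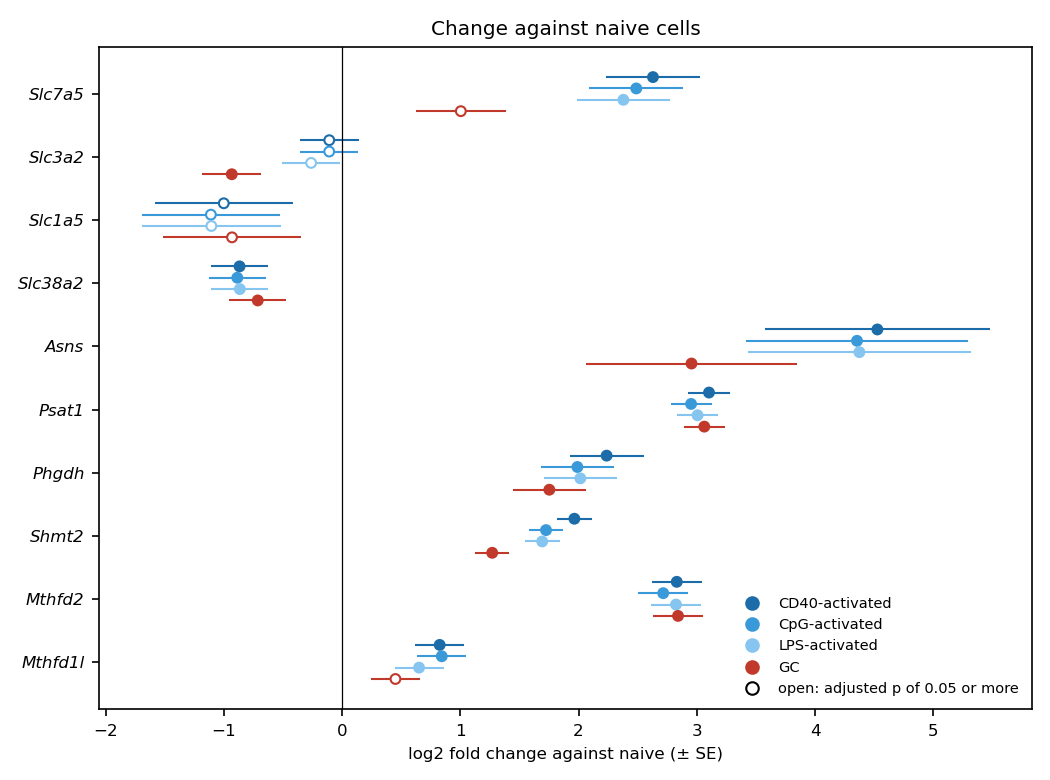
Log2 fold change against naive cells with its SE for CD40-, CpG- and LPS-activated and GC cells; filled points have an adjusted p under 0.05 in edgeR's quasi-likelihood test. The activated groups lie close together in every gene, and GC lies below them for Slc7a5, Slc3a2, Asns, Phgdh, Shmt2 and Mthfd1l.

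Slc7a5 (ENSMUSG00000040010, chr8:121881150-121907694) encodes the transport subunit LAT1. Among libraries A, B and C it stood at 201, 129.5 and 274 CPM in CD40-activated cells, at 191, 112 and 245 CPM in CpG-activated cells, at 183, 104 and 220.4 CPM in LPS-activated cells, at 63.6, 69.5 and 62.7 CPM in GC cells and at 46.6, 32.8 and 18.1 CPM in naive cells. The ranges of activated, GC and naive libraries did not overlap, with activated libraries highest and naive lowest. Of all genes, 25.3% to 27.2% lay above naive without overlap in each activated group and in GC. Each activated group lay above GC in this way for 26.8% to 28.7%. Against naive cells Slc7a5 rose by 2.63 ± 0.40 with CD40, 2.49 ± 0.40 with CpG and 2.38 ± 0.40 with LPS (log2 ± SE, edgeR adjusted p = 0.000211, 0.000316 and 0.00043). Against GC cells the values were 1.63 ± 0.39, 1.48 ± 0.38 and 1.38 ± 0.38 (adjusted p = 0.00595, 0.01 and 0.0156). The CpG call against GC is lost without CpG library C (1.18, adjusted p = 0.0542). The LPS call is lost without LPS A or C or any GC library, 5 omissions in all, at adjusted p between 0.0511 and 0.0781. GC against naive was 1.00 ± 0.38 and missed the threshold in edgeR's test (adjusted p = 0.0559). It passed in 7 of the 15 omissions of a library, at adjusted p between 0.0272 and 0.0441: without naive A, or without the CD40, CpG or LPS library of letter B or C. It also passed in DESeq2 (0.0345) and with naive C as the lone naive library (1.85, adjusted p = 0.0329).

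Slc3a2 (ENSMUSG00000010095, chr19:8706882-8723369) encodes the heavy chain 4F2hc, which takes Slc7a5 to the membrane. It read 120, 140.2 and 167 CPM in CD40-activated, 112, 146 and 169 CPM in CpG-activated and 115, 133 and 135 CPM in LPS-activated libraries. GC libraries held 76.6, 89.2 and 75.2 CPM and naive libraries 117, 233 and 110.2 CPM. GC libraries lay below every activated and every naive library, while activated and naive libraries overlapped and naive B was the highest of all. Of all genes, 18.4% lay lower in GC than in naive without overlap. Each activated group lay above GC in this way for 26.8% to 28.7%. GC cells fell by 0.93 ± 0.25 against naive cells (edgeR adjusted p = 0.00936), a call lost without GC A (0.0644) or GC C (0.0649), with only GC and naive libraries fitted (0.0778) or with naive C as the lone naive library (-0.46, adjusted p = 0.152). Against GC cells, activated cells were higher by 0.82 ± 0.25 with CD40 and by 0.82 ± 0.25 with CpG (adjusted p = 0.0222 and 0.022), and LPS missed the threshold (0.67 ± 0.25, adjusted p = 0.0576). The CD40 call is lost without CD40 B or C or any GC library, and the CpG call without CpG B or C or GC A or C, at adjusted p between 0.0518 and 0.11. The LPS value passes without naive A or naive B (adjusted p = 0.045 and 0.0038), without the filter on low counts and with only LPS and GC libraries fitted (0.00172). Against naive cells the activated values were -0.11 ± 0.25, -0.11 ± 0.25 and -0.26 ± 0.25 for CD40, CpG and LPS. They turn to 0.33, 0.33 and 0.17 without naive B, and the CD40 and CpG values also turn positive without their own library A (0.06 and 0.11). Since the proteins work as a pair, the ratio of CPM per kb of exon of Slc7a5 to Slc3a2 is also of use. It was 1.34 ± 0.40 in CD40-activated, 1.24 ± 0.46 in CpG-activated and 1.27 ± 0.46 in LPS-activated libraries, 0.775 ± 0.029 in GC libraries and 0.223 ± 0.135 in naive libraries (mean ± SD, n = 3). Activated libraries of letters A and C lay above every GC library, those of letter B at 0.88, 0.73 and 0.74 lay near the GC range, and every naive library lay below all of these.

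Slc1a5 (ENSMUSG00000001918, chr7:16781340-16798274) encodes ASCT2, an exchanger of glutamine and small neutral amino acids. It ranged from 84.3 to 117 CPM over the 9 activated libraries, with a median of 96.0, and from 99.4 to 118 CPM in GC libraries. Naive libraries read 115, 41.2 and 464 CPM. Both activated and GC libraries sit inside the naive range, and the naive libraries A and C are close to or above the highest of them. No difference passed: GC against naive was -0.93 ± 0.58 (edgeR adjusted p = 0.245), the CpG and LPS groups were each at -1.11 ± 0.59 (adjusted p = 0.168 and 0.169), and CD40 had an adjusted p of 0.21. Single naive libraries decide the value. Without naive C it was 0.54 for GC and 0.33 to 0.43 for activated cells, and without naive B it was -1.42 and -1.49 to -1.59, with adjusted p of 0.0155 for GC and 0.00864 to 0.0125 for activated cells. With naive C alone it was -2.10 for GC and -2.17 to -2.28 for activated cells, all called.

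Slc38a2 (ENSMUSG00000022462, chr15:96687392-96699730) encodes SNAT2, a sodium-coupled importer of neutral amino acids. It stood at 168, 108 and 128 CPM for CD40, 164, 101 and 133 CPM for CpG and 170.3, 103 and 131 CPM for LPS. GC libraries held 127, 151 and 171 CPM and naive libraries 309, 196 and 232 CPM. All naive libraries were above all others. Each activated group lay below naive without overlap for 16.2% to 16.6% of all genes, and GC for 18.4%. Activated and GC libraries overlapped for Slc38a2. Against naive cells it fell by 0.87 ± 0.24 with CD40, 0.89 ± 0.24 with CpG and 0.87 ± 0.24 with LPS (edgeR adjusted p = 0.0122, 0.011 and 0.0123), and by 0.71 ± 0.24 in GC cells (adjusted p = 0.0323). The GC call is lost in 14 of the 15 omissions, all but that of naive B, at values between -0.72 and -0.51 and adjusted p between 0.0525 and 0.189, as well as with only GC and naive libraries fitted (0.0655) and with naive C alone (0.149). The activated calls are each lost without naive A and without 1 or 2 libraries of their own stimulus (CD40 B or C, CpG B, LPS B or C), at adjusted p between 0.054 and 0.0826, and with naive C alone (adjusted p = 0.0689 to 0.0748), and the LPS call also with only LPS and naive libraries fitted (0.0515).

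Asns (ENSMUSG00000029752, chr6:7675169-7693254) encodes asparagine synthetase, which transfers nitrogen from glutamine to aspartate. It stood at 93.2, 112 and 121 CPM in CD40-activated, 86.4, 97.2 and 105 CPM in CpG-activated and 83.8, 105 and 104 CPM in LPS-activated libraries. GC libraries held 39.1, 35.0 and 35.3 CPM, and naive libraries 0, 9.86 and 4.34 CPM. The order was activated, GC, naive with no overlap. The 0 in naive A allows up to 0.165 CPM at a limit of 3 read pairs, 6 counts, which covers counting error only. Against naive cells Asns rose by 4.53 ± 0.95 with CD40, 4.36 ± 0.94 with CpG, 4.38 ± 0.94 with LPS and 2.96 ± 0.89 in GC cells (edgeR adjusted p = 0.00295, 0.00364, 0.00347 and 0.0217). The size rests on single naive libraries: for CD40, CpG, LPS and GC it was 3.95, 3.78, 3.79 and 2.35 without naive A, 5.68, 5.51, 5.53 and 4.11 without naive B and 4.64, 4.47, 4.49 and 3.07 with naive C as the lone naive library, each still called. The GC call is lost when only GC and naive libraries are fitted (adjusted p = 0.137) and without the filter on low counts (0.0637), and the CpG call with only CpG and naive libraries (0.0544). Activated over GC was 1.57 ± 0.83, 1.40 ± 0.83 and 1.42 ± 0.83 for CD40, CpG and LPS and was not called (adjusted p = 0.188, 0.245 and 0.241), although no library overlapped, as was so for 26.8%, 28.7% and 28.3% of all genes in that direction. The spread in this test is estimated over all groups, with the naive libraries among them. Fitted on the activated and GC libraries of each comparison alone, the same differences were 1.61, 1.43 and 1.44 with adjusted p of 4.09e-05, 4.25e-05 and 4.4e-05, and without naive A they passed in the fit of all groups (0.000193, 0.000434 and 0.00041).

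Serine synthesis was represented by Phgdh, the enzyme of its first step, and Psat1, the aminotransferase of the next. Phgdh (ENSMUSG00000053398, chr3:98313170-98339990) read 294, 171 and 307 CPM in CD40-activated, 276, 143 and 230.0 CPM in CpG-activated and 275, 155 and 231 CPM in LPS-activated libraries, against 174, 199.9 and 177 CPM in GC libraries and 67.7, 34.7 and 61.1 CPM in naive libraries. Naive libraries were lowest without overlap, and the letter B activated libraries, unlike the others, were all below every GC library. Phgdh rose against naive cells by 2.24 ± 0.31, 1.99 ± 0.31 and 2.02 ± 0.31 with CD40, CpG and LPS and by 1.75 ± 0.31 in GC cells (edgeR adjusted p = 7.92e-05, 0.000209, 0.000187 and 0.00046), and activated over GC was 0.48 ± 0.30, 0.24 ± 0.30 and 0.26 ± 0.30, none called (adjusted p = 0.26, 0.623 and 0.582).

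Psat1 (ENSMUSG00000024640, chr19:15904678-15947337) ranged from 171 to 248 CPM over the 9 activated libraries with a median of 190.4, and read 211, 215 and 201 CPM in GC libraries and 30.1, 22.4 and 22.5 CPM in naive libraries. GC libraries lay inside the activated range and naive libraries far below both. The rise against naive cells was 3.10 ± 0.17, 2.95 ± 0.17 and 3.01 ± 0.17 with CD40, CpG and LPS and 3.06 ± 0.17 in GC cells (edgeR adjusted p = 1.73e-08, 2.72e-08, 2.51e-08 and 1.05e-08), an 8.60-, 7.74-, 8.04- and 8.36-fold higher level. Activated over GC was 0.04 ± 0.16, -0.11 ± 0.16 and -0.06 ± 0.16 and not called.

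Shmt2 (ENSMUSG00000025403, chr10:127517123-127522444), the mitochondrial serine hydroxymethyltransferase, stood at 311, 317 and 356 CPM in CD40-activated, 291, 257 and 286 CPM in CpG-activated and 273, 257 and 285 CPM in LPS-activated libraries, against 206, 198 and 205 CPM in GC libraries and 97.1, 65.1 and 90.0 CPM in naive libraries. The classes were ordered activated, GC, naive with no overlap, and the CD40 libraries were the highest 3 of the 9 activated ones. Against naive cells Shmt2 rose by 1.96 ± 0.15, 1.72 ± 0.15, 1.69 ± 0.15 and 1.27 ± 0.15 with CD40, CpG and LPS and in GC cells (edgeR adjusted p = 2.66e-07, 8.55e-07, 9.86e-07 and 1.06e-05). Against GC cells it was higher by 0.70 ± 0.14, 0.46 ± 0.14 and 0.42 ± 0.14 with CD40, CpG and LPS (adjusted p = 0.00213, 0.0277 and 0.0398). The CD40 call held in all 15 omissions. The CpG call is lost in 11 of them (all but CD40 C and the naive libraries, adjusted p between 0.0504 and 0.112) and the LPS call in 13 (all but naive A and B, 0.063 to 0.163).

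Mthfd2 (ENSMUSG00000005667, chr6:83305691-83325908), the mitochondrial methylenetetrahydrofolate dehydrogenase, read 110.3, 137 and 113 CPM in CD40-activated, 98.8, 125 and 109 CPM in CpG-activated and 102, 139 and 117 CPM in LPS-activated libraries, against 119, 111 and 133 CPM in GC libraries and 12.4, 22.4 and 15.8 CPM in naive libraries. Activated and GC libraries overlapped, several-fold above the highest naive library. It rose by 2.83 ± 0.21, 2.72 ± 0.21, 2.82 ± 0.21 and 2.84 ± 0.21 with CD40, CpG and LPS and in GC cells (edgeR adjusted p = 2.14e-07, 3.21e-07, 2.13e-07 and 1.41e-07). The differences between activated and GC cells were between -0.13 and -0.01 with an SE of 0.20. A gene model on the same strand inside the locus, Gm43890, had at most 84 counts in any library.

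Mthfd1l (ENSMUSG00000040675, chr10:3973118-4167081), the mitochondrial formyltetrahydrofolate synthetase, differed least from naive cells among the folate enzymes. It ranged from 82.9 to 134 CPM over the 9 activated libraries (median 100.5), from 78.2 to 93.3 CPM in GC libraries and from 49.3 to 80.0 CPM in naive libraries. Activated libraries lay above naive ones, and GC libraries overlapped with both, though not with the CpG libraries, which were all higher. The rise against naive cells was 0.83 ± 0.21, 0.84 ± 0.21 and 0.65 ± 0.21 with CD40, CpG and LPS (edgeR adjusted p = 0.00678, 0.00604 and 0.025), while GC against naive was 0.45 ± 0.21 (0.107). The LPS call is lost without LPS B, naive A or naive C and with only LPS and naive libraries fitted (0.0694 to 0.093), the CD40 call with only CD40 and naive libraries (0.0507), and the GC value passes without naive B (0.68, adjusted p = 0.0139) or with naive C alone (0.78, adjusted p = 0.0375).

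**Figure D3:**
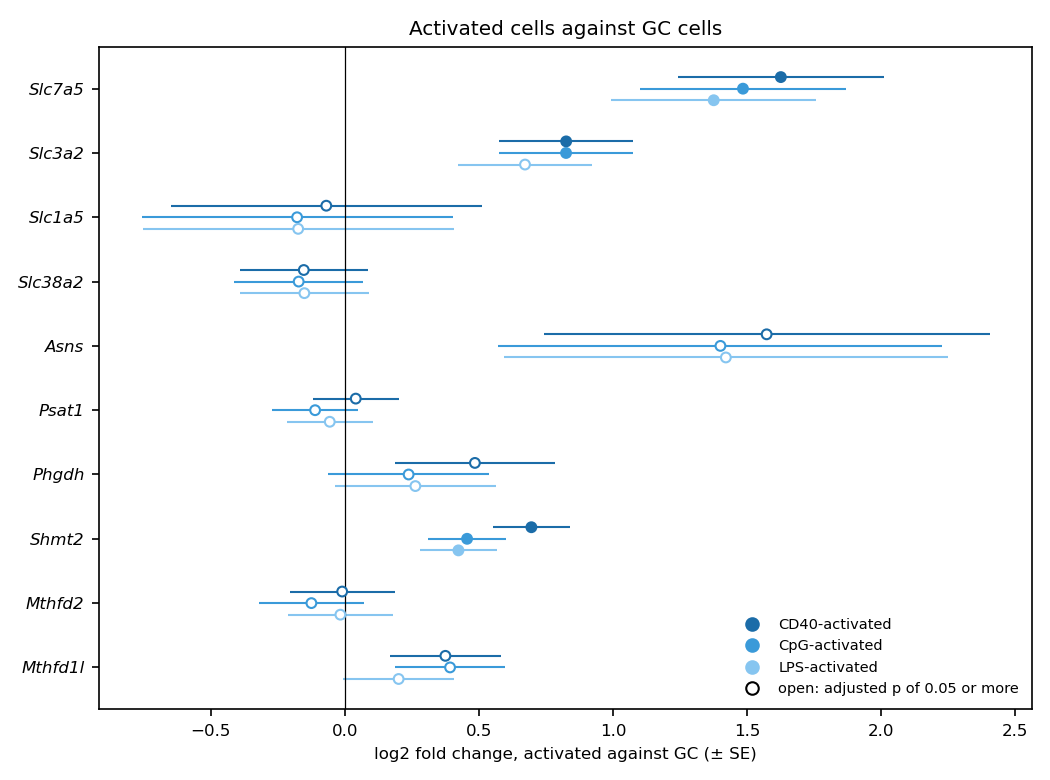
Log2 fold change of CD40-, CpG- and LPS-activated against GC cells with its SE; filled points have an adjusted p under 0.05 in edgeR's quasi-likelihood test. Slc7a5 and Shmt2 are filled for all 3 stimuli, Slc3a2 for CD40 and CpG, and Asns lies at 1.40 to 1.57 with wide error bars and open points.

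Levels of different genes are compared as CPM per kb of exon. Over the 9 activated libraries Shmt2 and Phgdh led with 94.1 ± 10.2 and 93.1 ± 24.9 CPM per kb (mean ± SD, n = 9) and could not be ordered, followed by Slc7a5 at 49.7 ± 16.0 and Psat1 at 47.7 ± 6.1. Each neighbour in that order overlapped with the next, except that Slc38a2, the lowest at 15.2 ± 3.1 CPM per kb, lay below every library of Slc1a5. In GC libraries the order was Phgdh at 73.9 ± 5.7, Shmt2 at 65.2 ± 1.4, Psat1 at 49.1 ± 1.7 and Mthfd2 at 34.7 ± 3.1 CPM per kb (n = 3), without overlap among these, and Asns was the lowest at 13.3 ± 0.8. In naive libraries the transporters Slc1a5, Slc3a2 and Slc38a2 had the highest means, 49.5 ± 54.1, 43.5 ± 19.5 and 27.8 ± 6.5 CPM per kb, Asns the lowest at 1.73 ± 1.81, and every neighbour overlapped. The mitochondrial enzymes were set beside their cytosolic counterparts in the same unit; Mthfd1 was picked for this after its values were seen. Mthfd2 over Mthfd1 was 2.19 ± 0.36, 2.08 ± 0.26 and 2.12 ± 0.31 in CD40-, CpG- and LPS-activated libraries and 1.89 ± 0.11 in GC libraries, against 0.471 ± 0.224 in naive libraries. Shmt2 over Shmt1 was 6.88 ± 0.90, 6.32 ± 0.55, 5.87 ± 0.82 and 6.75 ± 0.88 in those groups, against 30.2, 4.15 and 11.3 in naive libraries A, B and C, so for this pair naive libraries lay on both sides.

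By pattern, Psat1 and Mthfd2 were the closest pair of the 10, with a root mean square difference of 0.308 in centred log2 CPM over the 15 libraries, and Phgdh and Shmt2 the next at 0.317. The tested genes most like Slc7a5 by this measure were Sdf2l1 (0.356), Arid3a (0.361) and Gm24187 (0.365), those most like Mthfd2 were Apobec3 (0.297), Palm (0.297) and Sema7a (0.303), and those most like Asns were Tmbim1 (0.641), Ddias (0.673) and Iqgap3 (0.698). Asns had no gene as close as the other 2 had.

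Between stimuli, none of the 10 genes was called in CD40 against CpG, CD40 against LPS or CpG against LPS, and neither was any of the 17144 genes (0% called in each by edgeR). In that fit, which leaves the letter out, 92, 115 and 71 genes (0.537%, 0.671% and 0.414%) had an unadjusted p under 0.05. None of them was among the 10. DESeq2, also without the letter, called 0, 0 and 1. Among the 10, Phgdh differed most in CD40 over CpG, at 0.25 ± 0.30 with overlapping libraries. Shmt2 stood at 0.24 ± 0.14 for CD40 over CpG and 0.27 ± 0.14 for CD40 over LPS, and its CD40 libraries did not overlap with either group. Non-overlap was seen in 2.44% and 2.65% of all genes in that direction and in 2.45% and 2.92% in the other. With the letter as a block, which fits activated libraries alone since the letters pair only these, Shmt2 passed in CD40 against LPS (0.27 ± 0.06, edgeR adjusted p = 0.0388) with 44 of 15727 genes called (0.28%), and not in CD40 against CpG (0.24 ± 0.06, adjusted p = 0.125; 27 genes, 0.172%). In that fit Slc7a5 was at 0.25 ± 0.06 in CD40 against LPS (adjusted p = 0.0826) and Phgdh at 0.25 ± 0.06 in CD40 against CpG (adjusted p = 0.162), and no gene of the 10 was called in CpG against LPS, where 45 were called over all genes (0.286%). With the block, edgeR gave an unadjusted p under 0.05 for 5 of the 10 in CD40 against CpG and 5 in CD40 against LPS. In CpG against LPS it did so for 1. The share of all genes at that level was not counted with the block, and the shares above come from the fit without it. These counts of the 10 therefore have no background to be read against.

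Between letters the 10 genes differed widely. The 3 libraries of a letter are its 3 titled stimuli and may share cells. The SDs and p-values below reflect the spread within letters, and whether letters are independent preparations is not given. In a model of stimulus and letter on the 9 activated libraries, 8 of 10 were called between A and B (4 higher and 4 lower in A), 6 between A and C (1 higher and 5 lower in A) and 8 between B and C (2 higher and 6 lower in B). Over the 15727 genes tested there the shares were 31.1%, 23.4% and 34.8%. These shares of the 10 genes stand above the background, and their medians were 0.00, -0.18 and -0.22 beside 0.01, 0.02 and 0.02 over all genes. Slc7a5 averaged 192 ± 9 CPM in letter A, 115 ± 13 in B and 246 ± 27 in C (SD, n = 3), with no overlap between letters. In the same directions 23.3% (A and B), 16.4% (A and C) and 21.8% (B and C) of all genes did not overlap. Slc7a5 was 0.74 ± 0.06 higher in A than in B, 0.36 ± 0.06 lower in A than in C and 1.10 ± 0.06 lower in B than in C (edgeR adjusted p = 4.48e-10, 5.1e-05 and 2.06e-13). Phgdh averaged 282 ± 10, 156 ± 14 and 256 ± 44 CPM and was also lowest in B (A over B 0.85 ± 0.07, adjusted p = 1.12e-10; B over C -0.70 ± 0.07, adjusted p = 2.96e-09). Slc38a2 averaged 167 ± 3, 104 ± 4 and 131 ± 3 CPM and was highest in A (A over B 0.69 ± 0.06, adjusted p = 3.05e-09; A over C 0.36 ± 0.06, adjusted p = 0.000101). Mthfd1l and Mthfd2 ran the other way, with their highest mean levels in B, at 127 ± 9 and 134 ± 8 CPM against 90.6 ± 8.4 and 104 ± 6 in A and 101 ± 8 and 113 ± 4 in C. B over C was 0.33 ± 0.07 and 0.24 ± 0.06 for these genes (adjusted p = 0.000387 and 0.0054). Some smaller calls rest on single libraries. That of Slc1a5 between A and B is lost without CD40 A or B, CpG B or LPS A or B (edgeR adjusted p = 0.0762 to 0.231) and that between A and C without CD40 C, CpG A or C or LPS A or C (0.0624 to 0.196). Between A and B, Slc3a2 is lost without CpG A (0.0639) and Asns without LPS B (0.059), and between B and C, Shmt2 is lost without CD40 B or C, CpG B or LPS B or C (0.0762 to 0.195). Plasma cell markers moved with the letters too: the 5 genes Prdm1, Sdc1, Xbp1, Jchain and Irf4 summed to 1735 to 1869 CPM in A, 1143 to 1226 CPM in B and 3300 to 4907 CPM in C, and all 5 had counts in each letter. Most of the gap between A and C in this sum was Jchain, at 69.3 to 114 CPM in A, 17.0 to 19.0 CPM in B and 1538 to 2844 CPM in C. Prdm1 held 8.31 to 11.6, 2.83 to 4.75 and 58.1 to 78.5 CPM in A, B and C. The part of plasma cells in the letter differences was not tested.

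**Figure D4:**
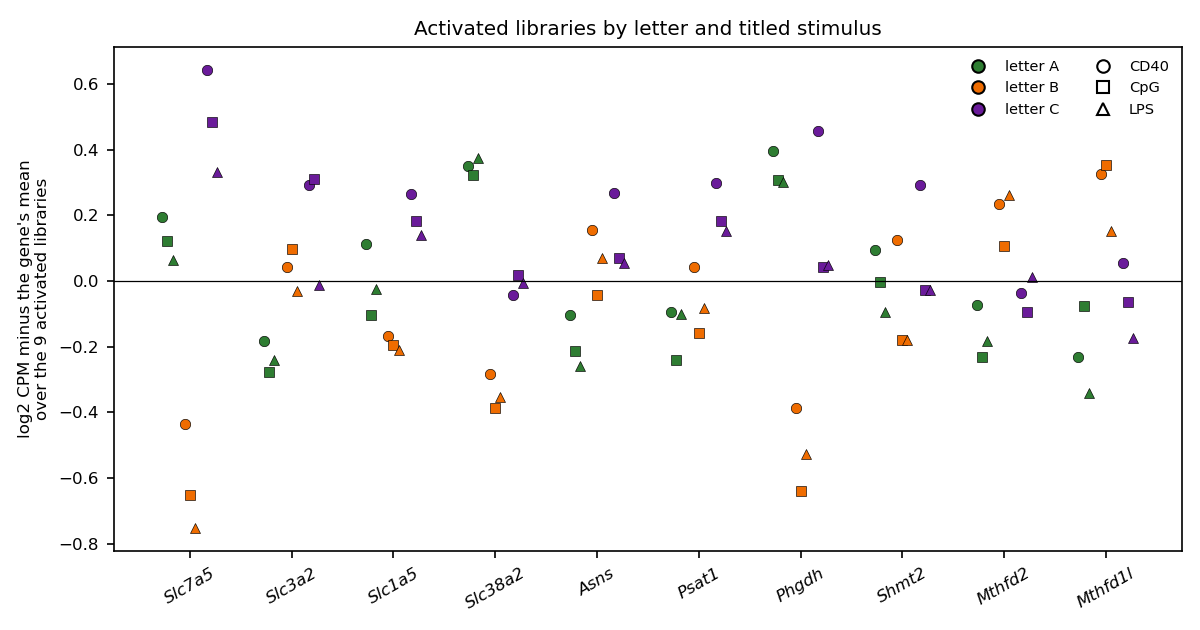
Log2 CPM of each gene minus its own mean over the 9 activated libraries, coloured by letter with the marker shape giving the titled stimulus. Points of 1 letter lie together in most genes, and Slc7a5 and Phgdh are lowest in B.

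The other genes of the pathway were followed through 6 lists without the 10 genes, and genes within them are named by size of change. Over all genes tested, 19.8%, 19.7% and 19.5% rose and 14.3%, 14.0% and 14.2% fell with CD40, CpG and LPS against naive cells, and 17.9% rose and 16.5% fell in GC cells. Against GC cells 15.9%, 16.4% and 15.8% were higher and 12.4%, 12.6% and 12.2% lower. Of 24 other amino acid transporters 19 were tested. Against naive cells 6 rose with each stimulus and 1, 3 and 2 fell with CD40, CpG and LPS (medians 0.72, 0.75 and 0.74), while 2 rose and 4 fell in GC cells (median 0.27), which is near the background. Against GC cells 6, 6 and 5 were higher and 1 lower with CD40, CpG and LPS. Slc1a4, which carries alanine and serine, held 11.4 to 19.2 CPM in activated libraries, 2.64 to 3.57 CPM in GC libraries and 0, 0 and 0.832 CPM in naive libraries. Slc6a9, a glycine transporter, held 4.39 ± 2.54, 4.23 ± 1.75 and 5.34 ± 2.81 CPM with CD40, CpG and LPS and had no count in any naive library. Its level was 72.3-, 65.9- and 86.1-fold higher than a floor of 6 counts over the naive group. That floor covers counting error only and leans on naive A and B, which hold few low-count genes. Slc6a9 passed the filter on low counts only through activated libraries. In these it could only come out higher, which adds to the counts of rises. Slc7a3, for cationic amino acids, rose too (5.89 ± 1.22, 5.73 ± 1.21 and 5.92 ± 1.22, edgeR adjusted p = 0.00187, 0.0022 and 0.00181). In GC cells Slc1a4 rose (3.48 ± 0.98, edgeR adjusted p = 0.0131). Slc6a9 was called higher there too, but on 14 counts over the GC libraries, at 0 to 0.327 CPM (edgeR adjusted p = 0.0287). Among called genes with at least 5 CPM in GC or naive cells the largest changes were decreases, in Slc16a10, for aromatic amino acids (-3.50 ± 0.57), Slc38a7, for glutamine (-1.58 ± 0.26), and Slc43a2, for large neutral ones (-1.27 ± 0.23; adjusted p = 0.000226, 0.000237 and 0.000592).

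Of 26 other serine, glycine and folate cycle genes tested, 13, 11 and 11 rose and 2 fell with CD40, CpG and LPS against naive cells (medians 0.96, 0.82 and 0.77), and 7 rose and 3 fell in GC cells (median 0.00). Against GC cells 6, 5 and 5 were higher and 1 lower with CD40, CpG and LPS (medians 0.43, 0.36 and 0.35). Tyms, which makes thymidylate, rose by 4.56 ± 0.27, 4.37 ± 0.27, 4.63 ± 0.27 and 4.43 ± 0.27 with CD40, CpG and LPS and in GC cells (edgeR adjusted p = 2.69e-08, 3.91e-08, 2.62e-08 and 1.91e-08). Shmt1, the cytosolic counterpart of Shmt2, rose by 2.31 ± 0.40 to 2.44 ± 0.40 in activated cells. Ggh, which trims folate polyglutamates, fell by 2.86 ± 0.90 in GC cells (adjusted p = 0.0227).

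The list of ATF4 targets and amino acid stress genes held 17 tested genes. Against naive cells 11, 10 and 11 rose and 4 fell with each of CD40, CpG and LPS, with medians of 2.85, 2.71 and 2.82. In GC cells 4 rose and 4 fell, with a median of 0.00. That median is the value of Nupr1, Stc2 and Vldlr, which had no count in GC or naive libraries. It therefore does not show that the list was unchanged. Against GC cells 10, 10 and 9 rose and 0, 1 and 1 fell, with medians of 2.50, 2.36 and 2.38. The medians do not move when genes without a count in naive or GC libraries are set at their bound. However, Nupr1, Vldlr, Stc2 and Cbs passed the filter on low counts only through activated libraries. Cbs had 12 counts over the GC libraries and none in naive ones. In activated cells these genes could only come out higher, which adds to the counts and medians, and the bound does not address this. Cth, which makes cysteine, held 25.5 ± 4.5, 21.3 ± 2.8 and 25.1 ± 2.3 CPM in CD40-, CpG- and LPS-activated cells, 3.27 ± 0.23 CPM in GC cells and no count in naive libraries. Against a floor of 6 counts pooled over the naive libraries this is 396-, 337- and 401-fold. That floor covers counting error only and leans on naive A and B, which hold few low-count genes. The limit of naive C alone is 0.208 CPM, so the folds may be smaller. Cth was higher in activated than in GC cells by 2.96 ± 0.26, 2.71 ± 0.25 and 2.94 ± 0.26 (edgeR adjusted p = 3.35e-06, 6.3e-06 and 3.5e-06). Chac1, which breaks down glutathione, held 16.9 ± 4.7, 13.8 ± 4.8 and 12.8 ± 5.5 CPM in activated cells and 1.79 ± 0.17 CPM in GC cells, again with no count in naive libraries. Stc2, a secreted glycoprotein, had counts in every activated library (4.65 to 8.01 CPM) and none in GC or naive libraries. Ppp1r15a, which restores translation, and Ddit3 and Cebpb, which encode transcription factors, fell by 3.55 ± 0.36, 2.24 ± 0.39 and 2.14 ± 0.44 in GC cells (adjusted p = 3.55e-06, 0.000418 and 0.00164) and also in activated cells. Handling can raise these genes too. Naive A held 733 CPM of Ppp1r15a, naive B 1029 CPM and naive C 279.7 CPM, where early response and heat shock genes summed to 8849, 6290.3 and 2258 CPM; the part of handling was not tested. Atf4 mRNA, named after its values were seen, fell too in all 4 groups against naive cells, in GC cells by 0.42 ± 0.15 (adjusted p = 0.0433). It was 321 ± 15, 297 ± 24 and 301 ± 31 CPM in CD40-, CpG- and LPS-activated cells, 411 ± 32 CPM in GC cells and 548 ± 104 CPM in naive cells, so the activated cells, in which most of the list was higher, held the least of it.

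**Figure D5:**
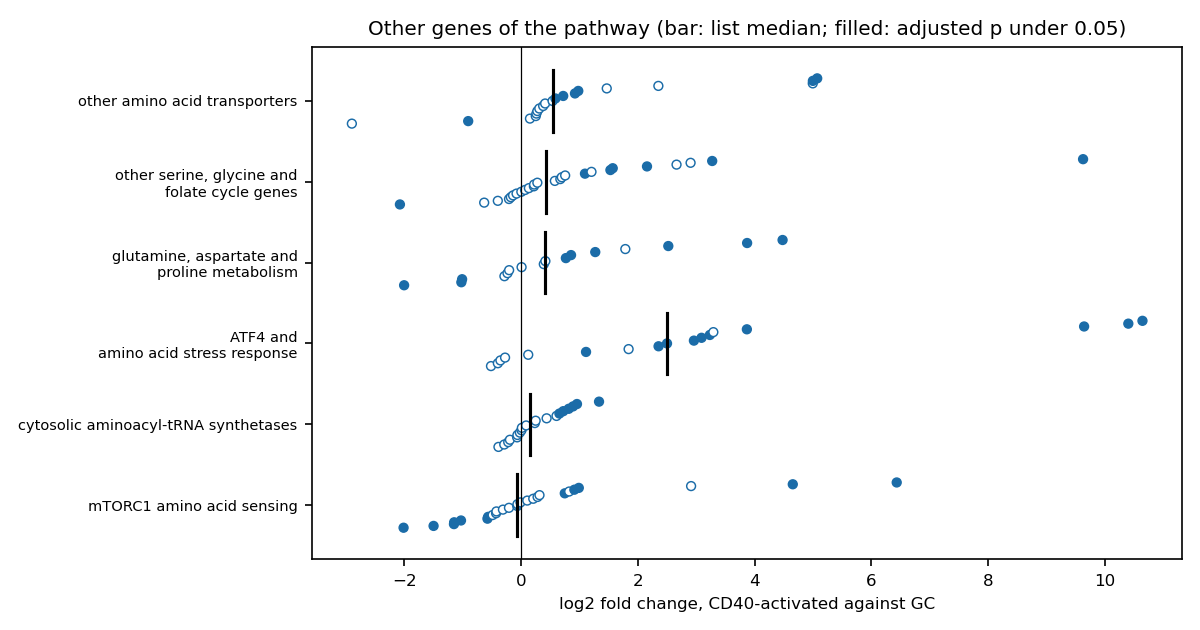
Log2 fold change of CD40-activated against GC cells for the tested genes of 6 lists, each point a gene, filled where edgeR's adjusted p is under 0.05, with a bar at the list median. The list of ATF4 targets and amino acid stress genes has 10 genes higher and none lower with a median of 2.50, and the other 5 medians lie between -0.06 and 0.54. In that list Nupr1, Vldlr, Stc2 and Cbs passed the filter on low counts only through activated libraries, as did Slc6a9 among the other transporters. Points at 8 or more have no count in GC libraries and their position depends on the prior count.

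Of the 20 cytosolic aminoacyl-tRNA synthetases, which charge tRNAs with their amino acids, 15, 16 and 15 rose and 1 fell with CD40, CpG and LPS against naive cells (medians 0.94, 0.88 and 0.90), and 12 rose and 1 fell in GC cells (median 0.62). Against GC cells 6, 5 and 7 were higher with CD40, CpG and LPS and none was lower. Gars, for glycine, rose by 1.61 ± 0.13, 1.49 ± 0.13, 1.57 ± 0.13 and 1.52 ± 0.13 with CD40, CpG and LPS and in GC cells (edgeR adjusted p = 5.06e-07, 1.04e-06, 6.01e-07 and 6.13e-07). Aars and Dars, for alanine and aspartate, rose in GC cells by 1.32 ± 0.27 and 1.29 ± 0.13. Eprs, for glutamate and proline, was higher in activated than in GC cells by 1.33 ± 0.18, 1.32 ± 0.18 and 1.32 ± 0.18 (adjusted p = 7.95e-05, 8.84e-05 and 8.58e-05), and Iars, for isoleucine, by 0.89 ± 0.14, 0.79 ± 0.14 and 0.76 ± 0.14 (0.000285, 0.000748 and 0.00104).

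Among 16 genes of glutamine, aspartate and proline metabolism 7, 7 and 8 rose and 1, 0 and 2 fell with CD40, CpG and LPS against naive cells (medians 0.45, 0.46 and 0.69), and 7 rose and 3 fell in GC cells (median 0.37). Pycr1, a mitochondrial enzyme of proline synthesis, averaged 28.8 ± 14.1, 23.4 ± 6.3 and 21.9 ± 3.7 CPM in CD40-, CpG- and LPS-activated cells and 1.96 ± 0.92 CPM in GC cells, and of the naive libraries C alone had counts, at 1.04 CPM. Gpt2, a mitochondrial alanine aminotransferase, averaged 26.5 ± 3.6, 21.0 ± 4.2 and 23.8 ± 4.8 CPM in activated cells, 1.18 ± 0.25 CPM in GC cells and 4.79 ± 4.80 CPM in naive cells. Both were higher in activated than in GC cells, Pycr1 by 3.87 ± 0.99, 3.57 ± 0.97 and 3.47 ± 0.97 (edgeR adjusted p = 0.01, 0.0146 and 0.0169) and Gpt2 by 4.48 ± 0.60, 4.15 ± 0.59 and 4.33 ± 0.59 (5.71e-05, 0.000101 and 7.47e-05). Got2, the mitochondrial aspartate aminotransferase, rose in all 4 groups against naive cells, by 1.54 ± 0.16, 1.46 ± 0.15, 1.47 ± 0.16 and 1.16 ± 0.15 with CD40, CpG and LPS and in GC cells. Aldh4a1, of proline breakdown, was at -1.47 ± 0.23 in GC cells (adjusted p = 0.000205).

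Of 26 genes through which mTORC1, a kinase complex that drives growth, senses amino acids, 3, 3 and 4 rose and 8, 8 and 9 fell with CD40, CpG and LPS against naive cells (medians -0.24, -0.22 and -0.28), and 5 rose and 9 fell in GC cells (median -0.45). The 5 of 26 that rose in GC cells are near the 17.9% of all genes. The leucine sensor Sesn1 stood at -3.83 ± 0.30, -3.84 ± 0.30, -3.87 ± 0.30 and -2.33 ± 0.28 with CD40, CpG and LPS and in GC cells (edgeR adjusted p = 3.79e-07, 3.99e-07, 3.48e-07 and 1.7e-05), and its relative Sesn3 at -1.69 ± 0.20, -1.58 ± 0.20, -1.60 ± 0.20 and -0.53 ± 0.19. Lamtor4, a subunit of the complex that holds mTORC1 at lysosomes, was at -1.16 ± 0.37, -1.18 ± 0.37 and -1.23 ± 0.37 in activated cells (adjusted p = 0.0261, 0.0249 and 0.02). Castor2, a relative of the arginine sensor Castor1, averaged 20.5 ± 6.3, 18.4 ± 8.7 and 17.9 ± 6.4 CPM in activated cells, 0.239 ± 0.231 CPM in GC cells and 13.2 ± 2.6 CPM in naive cells. Castor1 averaged 8.67 ± 3.62, 9.70 ± 2.76 and 8.79 ± 1.81 CPM, 0.345 ± 0.304 CPM and 11.4 ± 9.4 CPM in the same order of groups. Activated over GC was 6.24 ± 0.77 to 6.43 ± 0.78 for Castor2 (adjusted p = 2.36e-05 to 2.98e-05) and 4.65 ± 0.93 to 4.82 ± 0.94 for Castor1 (0.00132 to 0.00165), and neither was called between activated and naive cells.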

How the data were processed

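The authors deposited raw counts per gene for 15 libraries; per the submitters' processing notes reads were aligned with STAR 2.7.10a to mm10/GRCm38 and counted with featureCounts 2.0.6, and DESeq2 is named for testing. Strand setting, multi-mapping reads and annotation release are not given in the sources used here. Tests on the TMM-normalised counts used edgeR 4.0.16 under R 4.3.3 (filterByExpr, robust glmQLFit on all 15 libraries with 1 mean per group, glmQLFTest, two-sided, Benjamini-Hochberg adjustment over all genes tested). Letters were compared on the 9 activated libraries with stimulus as a term. Gene names, exon lengths and coordinates came from GENCODE M21, which named 54809 of 54838 IDs; the other 29 held at most 0.00872% of a library. For Ddit3, with 2 IDs, the one with more counts was used. Promoters came from RefSeq (GRCm38.p6).

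The 10 genes and all lists were chosen with earlier results of these data known. From each list the text names up to 3 genes with the largest absolute fold change in GC and up to 3 in all activated comparisons, among called genes with at least 5 CPM in a group, and for Slc7a5, Asns and Mthfd2 the 3 genes most alike in pattern. Some genes that this rule names are not reported here. Where a group has 0 counts, folds are set against 6 counts (3 read pairs) over the group. These bounds cover counting error only. They do not allow for the few low-count genes of naive A and B. The letters come from the sample titles. Same-letter deviations correlated over 0.1 for all 9 pairs of activated libraries of different stimulus, so letters pair these; between activated and GC, activated and naive, and GC and naive libraries the correlations ran from -0.0696 to 0.0752. Alternatives were DESeq2 1.42.0, median-of-ratios size factors, no filter on low counts, only the 2 groups compared, the letter as a replicate block, each library left out, and, chosen after seeing the data, naive C as the lone naive library. The procedure was run on simulated counts drawn independently for each library. These held no shared letter effect and no libraries with few low-count genes like naive A and B, so they do not cover those features.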

Additional observations from a re-analysis of the deposited data

How the results depend on the processing

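Counts of called genes among the 10 moved by over 1.5 times in some comparison in every omission of a library but that of naive B, with only the 2 groups compared and with the replicate block. GC against naive had 4 calls when only these groups were fitted, against 7. LPS-activated against GC had 4 calls when only these groups were fitted, against 2, and 0 to 4 when each library was left out in turn. CpG-activated against GC had 0 to 4 in the same omissions, against 3. With the replicate block, CD40 against LPS had 1 call (Shmt2) against 0. Across groups, where letters do not pair libraries, the replicate block gave 9 calls for GC against naive (adding Slc7a5, adjusted p = 0.0422, and Mthfd1l, 0.0093), 8 for each activated group against naive, and 4, 4 and 3 for CD40, CpG and LPS against GC. Over all genes, only the 2 groups compared gave 3005, 3137 and 3349 calls for CD40, CpG and LPS against naive, where the fit of all groups gave 5849, 5768 and 5779; the cause was not tested.

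Signs turned only for values that were not called. With naive C alone, an alternative chosen after seeing the data in which that library is assumed to vary like the other groups, Slc3a2 was 0.36, 0.37 and 0.21 for CD40, CpG and LPS against naive. Leaving out each library in turn, Slc3a2 ran from -0.26 to 0.33 for CD40, -0.25 to 0.33 for CpG and -0.41 to 0.17 for LPS, and Slc1a5 from -1.49 to 0.43, -1.59 to 0.33, -1.59 to 0.33 and, in GC cells, -1.42 to 0.54. Against GC cells, Psat1 with CD40 ran from -0.11 to 0.0837, Phgdh with CpG from -0.0044 to 0.42, Mthfd2 with CD40 from -0.17 to 0.0153 and Mthfd2 with LPS from -0.18 to 0.0492. Mthfd2 with CD40 was 0.0029 with median-of-ratios size factors, 0.0030 with DESeq2, 0.051 without the filter and 0.0265 with only the 2 groups. With LPS, Mthfd2 was 0.048 without the filter and 0.0035 with only the 2 groups, and Psat1 0.0065 without the filter. Naive A and B, which hold fewer genes than the other libraries, enter every other comparison with naive cells, and with 3 libraries per group small differences can miss the threshold.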
